A study of Mus musculus with 8 samples.

Results

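The 9 genes described here were *Mdm2*, *Ccng1*, *Trp53inp1*, *Sesn1*, *Plk2* and *Phlda3*, which are targets of p53, and *Gadd45a*, *Gadd45b* and *Gadd45g*, the Gadd45 family. They were taken by symbol from the 37310 genes of the deposited count table, and all 9 passed the filter on low counts, as did 13028 genes in total. RNA came from NMuMG cells, an epithelial line of the normal mouse mammary gland, with 2 biological replicates in each of 4 groups. Control cells and cells labelled KO, in which *Lnc-Nr6a1* was targeted, were either left untreated or given TGF-β1 at 10 ng/ml for 2 h. All 4 groups were grown in serum with insulin. The study's methods describe knockout cells made with CRISPR-Cas9 and grown from single cells, and how many clones stand behind the libraries is not given in the sources used here, so a clone and the deletion cannot be told apart. The targeted gene, annotated as *Gm13507*, had 3 and 14 counts in untreated control libraries, 11 and 7 in untreated libraries labelled KO, 25 and 35 in treated control libraries, and 0 and 0 in treated libraries labelled KO. The target thus checks the label of the treated libraries but not of the untreated ones, for which reason "labelled KO" is used throughout. In genes named after their values were seen, the untreated and treated libraries labelled KO were alike: *Fam111a*, *Dsg2* and *Mal2* had 0 counts in all 4 of them and 52 to 188 counts in each control library.

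As background, p53 is a transcription factor that is stabilised by DNA damage and other stresses and then switches on genes for cell cycle arrest, repair and cell death. Mdm2, a ubiquitin ligase made from a p53 target gene, marks p53 for degradation and so closes a negative feedback loop. The Gadd45 proteins are small stress-induced adaptors that bind the kinase Map3k4 upstream of p38 and JNK, the mitotic kinase Cdk1 and the replication clamp PCNA. *Gadd45a* is the member of the family best known as a p53 target, whereas *Gadd45b* is known as an early target of TGF-β and Smad signalling. TGF-β itself signals through receptor kinases and Smad transcription factors, and in NMuMG cells it starts a transition from an epithelial towards a mesenchymal state.

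The promoters of the Gadd45 genes are shown first because these 3 genes rose together after TGF-β. Each sequence is the 250 bases before the start of the gene in RefSeq on GRCm38.p6, in the direction of transcription. Capitals mark matches on either strand to the E-box CACGTG, the CCAAT box CCAAT or, in *Gadd45a*, a p53 half-site.
Gadd45a (chr6:67037408-67037657, minus strand): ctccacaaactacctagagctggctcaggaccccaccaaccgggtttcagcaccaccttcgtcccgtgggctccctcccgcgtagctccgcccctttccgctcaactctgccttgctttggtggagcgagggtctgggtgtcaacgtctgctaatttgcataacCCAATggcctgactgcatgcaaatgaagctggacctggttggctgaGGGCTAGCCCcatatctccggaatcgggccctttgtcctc
Gadd45b (chr10:80929841-80930090, plus strand): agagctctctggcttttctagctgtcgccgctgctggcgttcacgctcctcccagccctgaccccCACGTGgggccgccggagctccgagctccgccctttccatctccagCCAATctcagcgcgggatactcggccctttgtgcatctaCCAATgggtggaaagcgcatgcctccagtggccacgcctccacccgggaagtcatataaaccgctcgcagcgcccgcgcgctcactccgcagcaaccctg
Gadd45g (chr13:51846425-51846674, plus strand): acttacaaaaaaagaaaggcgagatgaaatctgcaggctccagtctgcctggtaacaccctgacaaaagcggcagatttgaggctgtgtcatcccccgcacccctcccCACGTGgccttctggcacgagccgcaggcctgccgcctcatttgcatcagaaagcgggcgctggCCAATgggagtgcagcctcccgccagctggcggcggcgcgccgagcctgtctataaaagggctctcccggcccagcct
The E-box lay 185 to 180 bases before the start in *Gadd45b* and 142 to 137 bases before it in *Gadd45g*. A CCAAT box lay 86 to 82 bases upstream in *Gadd45a*, 78 to 74 in *Gadd45g*, and at both 139 to 135 and 100 to 96 in *Gadd45b*. In *Gadd45a* the p53 half-site lay 40 to 31 bases upstream. Such matches are common: of 32851 promoter windows of the same length, 33.8% held a CCAAT box, 6.02% the E-box and 7.13% a p53 half-site. Neither the Smad palindrome GTCTAGAC (0.167% of windows), the Smad element CAGACA (17.1%), the AP-1 motif TGANTCA (6.75%) nor the CRE TGACGTCA (1.55%), the site of CREB and ATF factors, was found in these 3 windows.

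RefSeq promoters were matched for 8 of the 9 genes. Among the others, p53 half-sites were found upstream of *Mdm2* (186 to 177 bases before the start), *Ccng1* (185 to 176) and the second *Sesn1* promoter (173 to 164). The promoter of *Plk2* is shown as the only 1 of these 8 with a CRE, which lay 62 to 55 bases before the start. It also held the Smad element, both in capitals.
Plk2 (chr13:110394794-110395043, plus strand): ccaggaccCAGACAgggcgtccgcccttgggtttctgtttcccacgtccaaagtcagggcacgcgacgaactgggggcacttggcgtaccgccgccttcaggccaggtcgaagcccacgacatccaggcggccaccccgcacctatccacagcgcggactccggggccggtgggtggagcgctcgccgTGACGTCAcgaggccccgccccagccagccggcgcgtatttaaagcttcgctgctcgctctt
No searched motif was found in the 250 bases before the RefSeq start of *Phlda3*. The bases after that start were not found in a GENCODE vM1 transcript, unlike those of the other promoters matched, so the place of this window was not checked by the annotation used for the counts.

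In the NCBIM37 assembly (mm9), whose GENCODE vM1 annotation holds the gene identifiers of the table, *Gadd45a* (ENSMUSG00000036390.6) lies at chr6:66985090-66987451 on the minus strand, *Gadd45b* (ENSMUSG00000015312.8) at chr10:80392836-80394949 on the plus strand and *Gadd45g* (ENSMUSG00000021453.2) at chr13:51942047-51943837 on the plus strand. The p53 targets lie at chr10:117125944-117147814 (*Mdm2*, ENSMUSG00000020184.8, minus), chr11:40562054-40568813 (*Ccng1*, ENSMUSG00000020326.7, minus), chr4:11083578-11101526 (*Trp53inp1*, ENSMUSG00000028211.5, plus), chr10:41530380-41628230 (*Sesn1*, ENSMUSG00000038332.6, plus), chr13:111185252-111191052 (*Plk2*, ENSMUSG00000021701.7, plus) and chr1:137662696-137665713 (*Phlda3*, ENSMUSG00000041801.5, plus). Of the 1764 exon bases of *Gadd45a*, 337 are shared with the antisense RNA *E230016M11Rik*, which had 8 to 33 counts per library. Whether reads were counted by strand is not given in the sources used here, so reads in the shared bases cannot be assigned. The 3 Gadd45 genes are paralogs, and their coding sequences were identical at 67.1% (*Gadd45a* and *Gadd45b*), 68.7% (*Gadd45a* and *Gadd45g*) and 70.7% (*Gadd45b* and *Gadd45g*) of aligned bases. The longest run shared between a pair of their mRNAs was CTGCAGATCCATTTCAC, 17 bases in *Gadd45a* and *Gadd45g*, while a read had 75 bases. *Ccng1* had 1 near-identical stretch elsewhere in the genome (239 bases, 96.2% identity) and *Mdm2* had 8, the longest of 80 bases, so a small part of their reads could be shared with other loci.

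The libraries held 4297832 to 7871090 counts in untreated cells and 9895118 to 13574397 in treated cells, so that every treated library was deeper than every untreated one. The level that 3 counts give was 0.238 to 0.661 CPM (read counts relative to the TMM-adjusted total of the library), which covers counting error only, and no member had fewer than 47 counts in a library. Of 8 epithelial markers 6 had counts, with *Krt8*, *Krt18*, *Krt19* and *Cdh1* abundant, whereas *Cldn3* and *Cldn7* were at 0 in all libraries and *Epcam* did not exceed 0.187 CPM. The summed epithelial markers reached 5872 to 6968 CPM in untreated and 7939 to 10940 CPM in treated libraries. Fibroblast, immune and endothelial markers summed to at most 0.937, 5.58 and 0.847 CPM, with *Lum*, *Thy1*, *Cd3e* and *Kdr* at 0. Depth and the epithelial marker sum thus moved with TGF-β. Not every marker rose: *Krt8* and *Krt18* were higher in treated than in untreated libraries of either kind of cell, whereas *Krt19* was lower. Depth was tested by thinning the counts, and the part of the marker sum in the results below was not tested.

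Following TGF-β, all 3 Gadd45 genes rose in control cells and in cells labelled KO, while none of the 6 p53 targets passed the test in either. *Gadd45a* was at 7.36 and 10.3 CPM in untreated control libraries, 32.1 and 50.1 CPM in treated control libraries, 19.8 and 9.30 CPM in untreated libraries labelled KO, and 54.1 and 46.8 CPM in treated libraries labelled KO. Every treated library thus lay above every untreated one, although the untreated replicates labelled KO differed widely. In bulk RNA, a change in the number of cells that express a gene and a change in RNA per cell cannot be told apart. The rise was 4.66-fold in control cells (log2 fold change 2.22, SE 0.35, n = 2 per group, edgeR adjusted p = 0.00683) and 3.56-fold in cells labelled KO (1.83, SE 0.35, edgeR adjusted p = 0.0156).

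*Gadd45b*, whose protein is an activator of Map3k4, was at 20.6 and 18.1 CPM in untreated and 68.6 and 61.6 CPM in treated control libraries. In libraries labelled KO it was at 15.9 and 12.9 CPM untreated and 77.1 and 66.7 CPM treated. No treated library overlapped with an untreated one, and the 4 treated libraries lay between 61.6 and 77.1 CPM. Its level rose 3.36-fold in control cells (log2 fold change 1.75, SE 0.18, edgeR adjusted p = 0.00089) and 5.04-fold in cells labelled KO (2.33, SE 0.19, edgeR adjusted p = 0.000313).

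*Gadd45g*, the third member of the family, was at 16.2 and 11.8 CPM in untreated and 33.2 and 26.03 CPM in treated control libraries. In libraries labelled KO it was at 27.1 and 23.9 CPM untreated and 61.9 and 75.02 CPM treated. The untreated libraries labelled KO overlapped with the treated control libraries, and the treated libraries labelled KO lay above all others. The rise after TGF-β was 2.11-fold in control cells (log2 fold change 1.08, SE 0.22, edgeR adjusted p = 0.0191) and 2.69-fold in cells labelled KO (1.43, SE 0.21, edgeR adjusted p = 0.00538).

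Together these were 3 of 9 members called higher in control cells, where 4.69% of the genes tested were called higher, 4.47% lower and 9.16% in either direction. In cells labelled KO they were again 3 of 9, where 4.25% of genes were called higher, 2.57% lower and 6.82% in either direction. A call here needed an adjusted p under 0.05 in edgeR's quasi-likelihood test over all genes tested and a log2 fold change over 0.5 in size. With all libraries thinned to the smallest total, the log2 fold changes were 1.98, 1.81 and 1.06 in control cells for *Gadd45a*, *Gadd45b* and *Gadd45g*, and all 3 genes stayed called in both kinds of cells. *Gadd45g* was not called in control cells in a fit of only the 4 libraries concerned (log2 fold change 1.08, edgeR adjusted p = 0.064). In that fit 3.74% of all genes were called. Leaving out an untreated library leaves 1 in its group, and *Gadd45a* and *Gadd45g* lost calls in such fits. Far fewer of all genes were then called, so these fits cannot tell a weaker change from a weaker test. In control cells the log2 fold change of *Gadd45a* was 2.00 without control replicate 1. That of *Gadd45g* was 1.32 without control replicate 1 and 0.88 without replicate 2. In cells labelled KO *Gadd45a* was at 1.36 without KO replicate 2, and *Gadd45g* at 1.52 and 1.34 without KO replicate 1 or 2. *Gadd45b* kept its call in each of these fits.

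**Figure D1:**
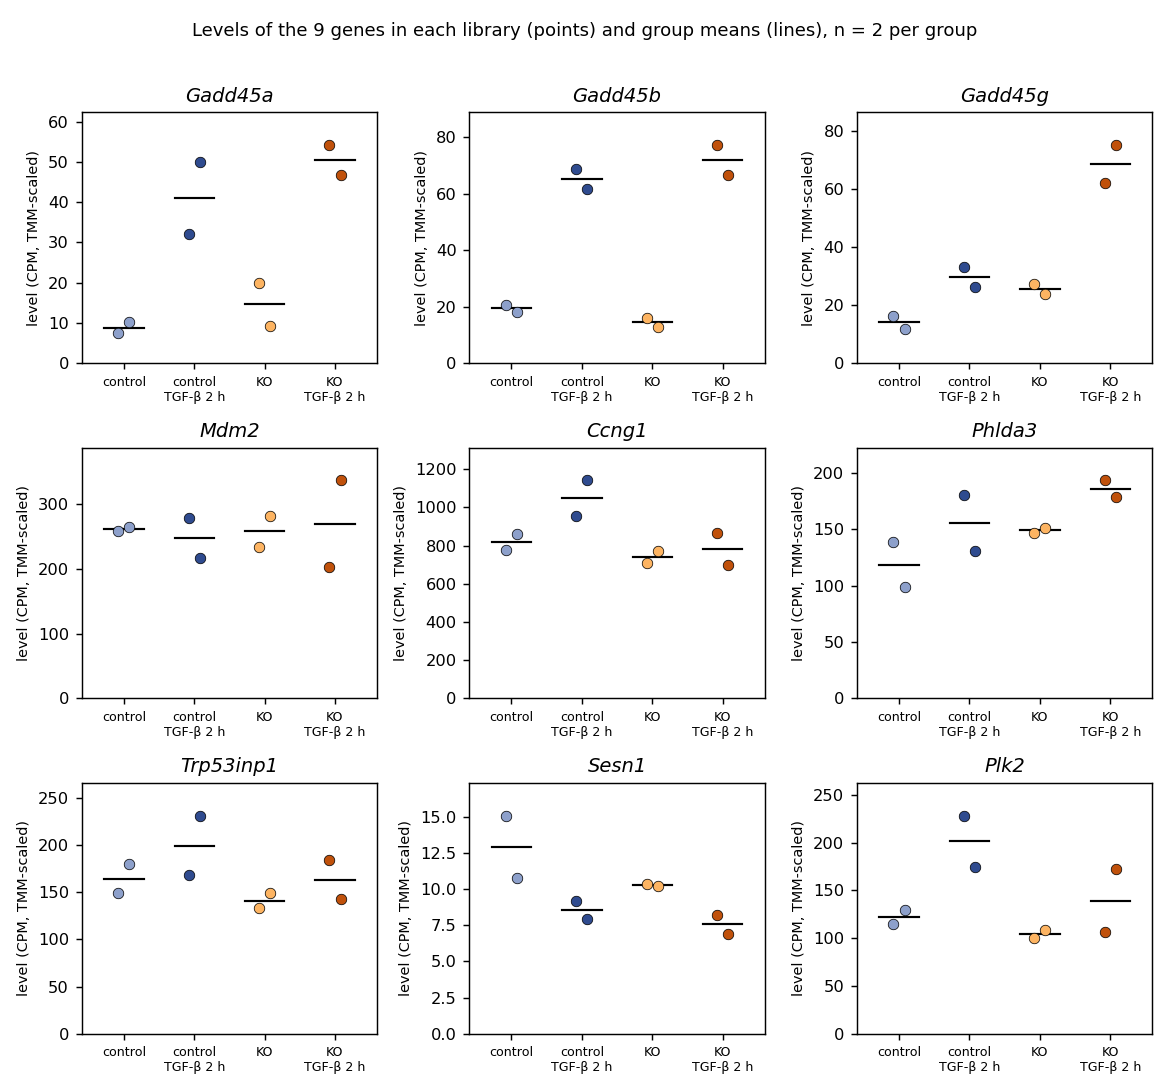
Level of each of the 9 genes in CPM scaled with TMM factors (y axis, from 0) in the 4 groups (x axis), with a point for each library and a line for the mean of 2 libraries. Treated and untreated points do not overlap within either kind of cell for the Gadd45 genes in the top row and for *Sesn1*, while those of *Mdm2* overlap in both.

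Between genotypes, *Gadd45g* was the one member that passed the test, and it did so in treated cells. The treated libraries labelled KO, at 61.9 and 75.02 CPM, lay above the treated control libraries at 33.2 and 26.03 CPM, a 2.31-fold difference (log2 fold change 1.21, SE 0.21, edgeR adjusted p = 0.00731). This was 1 of 9 members, where 15.0% of the genes tested were called in either direction, 8.47% higher and 6.57% lower. The treated control libraries stood apart in 2 measures, with the RNA 7SK at 1.87 and 2.15% of counts against 1.13 to 1.48% elsewhere and a median replicate difference over genes of 0.334 on the log2 scale against 0.2 to 0.218. The part of either in this comparison was not tested, and *Gadd45g* stayed called without either of these libraries. Without replicate 2 of the treated libraries labelled KO the difference was 1.08 on the log2 scale and missed the threshold (edgeR adjusted p = 0.051). *Gadd45a* (0.30, SE 0.32, adjusted p = 0.567) and *Gadd45b* (0.14, SE 0.17, adjusted p = 0.603) overlapped between the treated genotypes.

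In untreated cells 0 of 9 members passed edgeR's test, where 1.83% of genes were called. DESeq2 and limma-voom also called 0 members (3.06% and 1.05% of all genes), and 2 members had an unadjusted p under 0.05, as did 1936 of all 13028 genes. These were *Gadd45g*, 1.82-fold higher in the libraries labelled KO (log2 fold change 0.86, SE 0.22, edgeR adjusted p = 0.102), and *Gadd45b*, lower by 0.44 on the log2 scale (log2 fold change -0.44, SE 0.19, edgeR adjusted p = 0.318). Neither gene overlapped between the untreated genotypes. Nor did *Ccng1*, *Trp53inp1*, *Sesn1*, *Plk2* or *Phlda3*, with adjusted p of 0.496 to 0.698 from edgeR. With 2 libraries in each group, a lack of overlap alone shows little. *Gadd45g* was called without the filter on low counts (edgeR adjusted p = 0.0192) and in a fit of only the 4 untreated libraries (0.039). *Gadd45a* was 0.69 higher on the log2 scale (SE 0.37, adjusted p = 0.437), and its groups overlapped. This value leaned on the untreated replicates labelled KO, at 0.078 without replicate 1 and 1.17 without replicate 2, and was 0.46 and 0.95 without control replicate 1 or 2.

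Whether the response to TGF-β differed between the genotypes was tested as an interaction. By edgeR, 0 of 9 members and 0 of 13028 genes passed at an adjusted p under 0.05, while 1 member and 1134 genes had an unadjusted p under 0.05. DESeq2 called 31 genes and limma-voom 0, with 0 members among them. The member was *Gadd45b*, whose log2 fold change was larger by 0.58 in cells labelled KO (SE 0.25, adjusted p = 0.559 from edgeR). For *Gadd45g* the difference was 0.35 (SE 0.30, adjusted p = 0.785) and for *Gadd45a* it was -0.39 (SE 0.49, adjusted p = 0.866). The higher *Gadd45g* level of treated cells labelled KO was therefore not shown to come with a different response to TGF-β.

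**Figure D2:**
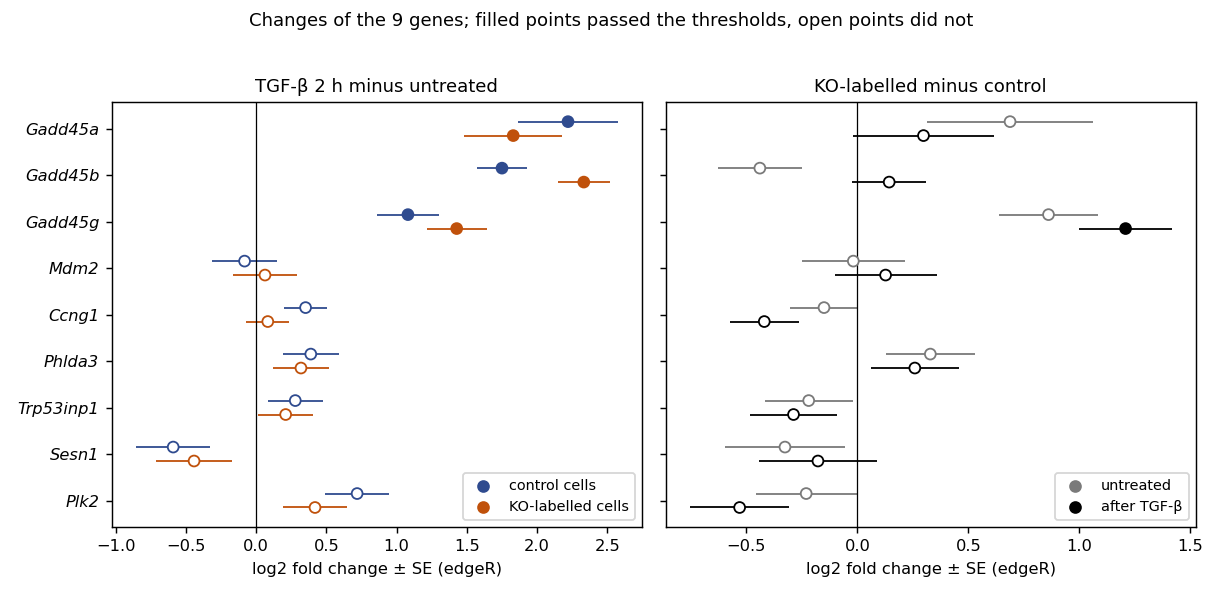
Log2 fold changes with standard errors from edgeR (x axis) for the 9 genes (y axis), for TGF-β in each kind of cell (left) and for cells labelled KO against control in each treatment (right), with filled points for genes that passed both thresholds. The 3 Gadd45 genes have filled points on the left, from 1.08 to 2.33, and *Gadd45g* after TGF-β has the only filled point on the right, at 1.21.

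Levels of different genes were compared per kb of merged exons. The 3 Gadd45 transcripts summed to 32.2 ± 2.88 CPM per kb (SD, n = 2) in untreated control cells and 99.95 ± 1.03 in treated control cells. In cells labelled KO the sums were 41.4 ± 7.81 and 143.7 ± 0.825 CPM per kb. *Gadd45b* made up 47.6 and 47.3% of this sum in the untreated control libraries but 26.7 and 28.4% in the untreated libraries labelled KO, whereas *Gadd45g* made up 40.2 and 33.5% in the former and 49.3 and 56.9% in the latter. The order of these 2 genes thus differed between untreated genotypes, with *Gadd45b* above *Gadd45g* in both control libraries and below it in both libraries labelled KO. This order was not tested, and neither gene passed between untreated genotypes (edgeR adjusted p = 0.318 and 0.102). After TGF-β, *Gadd45b* again had the larger share in control cells (53.8 and 49.0% against 28.1 and 22.4%). In treated cells labelled KO the shares overlapped, at 42.2 and 36.8% for *Gadd45b* and 36.5 and 44.7% for *Gadd45g*. *Gadd45a* made up 12.2 and 19.3% in untreated and 18.1 and 28.6% in treated control libraries, where it overlapped with *Gadd45g*. In libraries labelled KO it made up 24.0 and 14.7% untreated and 21.3 and 18.5% treated, so that its treated and untreated shares overlapped in both kinds of cells. Its share depends on the gene model, since its merged exons span 1764 bases and its longest mRNA 1223. By the length of such an mRNA, an alternative chosen after seeing the data, its mean share was 20.5% in untreated and 29.8% in treated control cells, its shares in libraries labelled KO were 30.0 and 18.96% untreated and 27.2 and 23.8% treated, and the order of *Gadd45b* and *Gadd45g* stayed as given in each of the 4 untreated libraries.

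**Figure D3:**
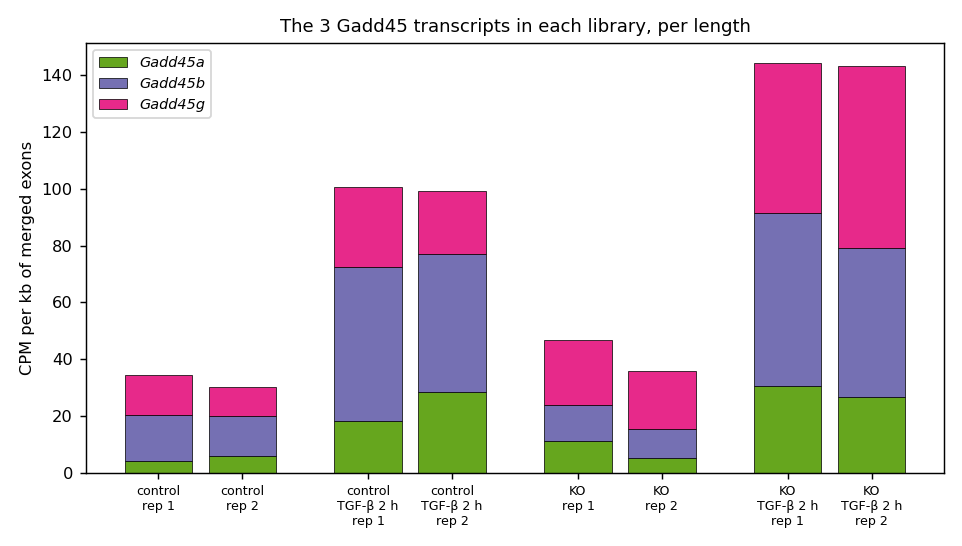
Stacked levels of the 3 Gadd45 transcripts in CPM per kb of merged exons (y axis, from 0) in each of the 8 libraries (x axis). Treated bars reach 99.2 to 144.3 CPM per kb against 30.2 to 46.9 in untreated ones, and the *Gadd45g* segment is larger than the *Gadd45b* segment in both untreated libraries labelled KO.

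None of the 6 p53 targets passed edgeR's main test after TGF-β in either kind of cell. Whether they differed from the Gadd45 genes as a group was not tested. *Mdm2* was at 257 and 265 CPM in untreated and 277 and 216 CPM in treated control libraries, and at 233 and 282 CPM untreated and 203 and 336 CPM treated in libraries labelled KO. Treated and untreated libraries overlapped in both kinds of cells, and the log2 fold changes after TGF-β were -0.08 (SE 0.23, edgeR adjusted p = 0.855) and 0.06 (SE 0.23, adjusted p = 0.905). The widest gap between replicates was in the treated libraries labelled KO.

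*Ccng1* encodes cyclin G1, which brings a phosphatase to Mdm2. Its level was 779 and 862 CPM in untreated and 953 and 1141 CPM in treated control libraries, and 707 and 770 CPM untreated and 866 and 699 CPM treated in libraries labelled KO. The treated control libraries lay above all others, but neither the change after TGF-β in control cells (log2 fold change 0.35, SE 0.15, edgeR adjusted p = 0.181) nor the difference between treated genotypes (-0.42, SE 0.15, adjusted p = 0.0966) passed. Without replicate 1 of treated control cells the latter was -0.53 and passed (adjusted p = 0.0489).

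*Plk2*, a polo-like kinase that acts in centriole duplication, was at 115 and 130 CPM in untreated and 228 and 175 CPM in treated control libraries. In libraries labelled KO it was at 99.9 and 109 CPM untreated and 107 and 172 CPM treated. The control groups did not overlap, whereas those labelled KO did. Its log2 fold change after TGF-β was 0.72 in control cells (SE 0.23, edgeR adjusted p = 0.0793) and 0.42 in cells labelled KO (SE 0.23, adjusted p = 0.315). The former passed with DESeq2 (adjusted p = 0.0259) and with edgeR without the filter on low counts (0.00202). Between treated genotypes it was -0.53 (SE 0.22, adjusted p = 0.14), and -0.50 without the filter (0.0422).

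*Phlda3*, whose product competes with Akt for membrane lipids, was at 139 and 98.6 CPM in untreated and 180 and 130 CPM in treated control libraries, and at 147 and 151 CPM untreated and 193 and 178 CPM treated in libraries labelled KO. The groups overlapped in control cells and not in cells labelled KO, and neither change passed (log2 fold changes 0.39 and 0.32, adjusted p = 0.247 and 0.392 from edgeR). *Trp53inp1*, whose product acts in autophagy and in the activation of p53, ranged from 133 to 231 CPM over the 8 libraries, with log2 fold changes after TGF-β of 0.28 and 0.21 (adjusted p = 0.399 and 0.579 from edgeR). *Sesn1* encodes sestrin 1, an inhibitor of mTORC1 signalling. It was at 15.1 and 10.7 CPM in untreated and 9.18 and 7.94 CPM in treated control libraries, and at 10.4 and 10.2 CPM untreated and 8.23 and 6.91 CPM treated in libraries labelled KO. Every treated library lay below every untreated one, but the log2 fold changes of -0.59 and -0.44 did not pass (adjusted p = 0.189 and 0.379 from edgeR).

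In untreated control cells the order of levels per kb was *Ccng1* (234 ± 16.7 CPM per kb, SD, n = 2), *Phlda3* (76.1 ± 18.1), *Mdm2* (51.5 ± 1.04), *Plk2* (43.7 ± 3.58), *Trp53inp1* (25.4 ± 3.31), *Gadd45b* (15.3 ± 1.43), *Gadd45g* (11.9 ± 2.61), *Gadd45a* (4.99 ± 1.16) and *Sesn1* (3.88 ± 0.922). Only *Gadd45a* and *Sesn1* overlapped among neighbours in this order. Both the order and the overlaps depend on the gene models, since the merged exons of *Mdm2* span 5070 bases and its longest mRNA 3132. Levels by mRNA length were not derived for the p53 targets. In treated cells labelled KO, *Gadd45g* (58.3 ± 7.93) and *Gadd45b* (56.8 ± 5.83) stood next to *Mdm2* (53.1 ± 18.6) and *Plk2* (49.8 ± 16.5), and these 4 overlapped. *Ccng1* at 223 ± 33.6 stayed the highest and *Sesn1* at 2.28 ± 0.280 the lowest.

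Across the 8 libraries, log2 CPM of *Gadd45a* and *Gadd45b* correlated at a Pearson's r of 0.89, *Gadd45a* and *Gadd45g* at 0.80 and *Gadd45b* and *Gadd45g* at 0.72. *Gadd45g* and the p53 target *Phlda3* correlated at 0.87, above 2 of these 3 values. *Ccng1* and *Trp53inp1* correlated at 0.94, and *Gadd45a* and *Sesn1* at -0.88. These values describe 8 points that share treatment, genotype and depth. The treated replicates went in opposite directions for several p53 targets: *Mdm2* and *Plk2* were higher in control replicate 1 and in replicate 2 labelled KO, as was *Cdkn1a*, the p53 target that encodes the cell cycle inhibitor p21, at 135 and 56.4 CPM in treated control and 62.8 and 181 CPM in treated libraries labelled KO. *Ccng1* and *Trp53inp1* were higher in the other library of each pair. *Cdkn1a*, named here after its values were seen, did not pass after TGF-β (log2 fold changes 0.74 and 1.19, adjusted p = 0.356 and 0.186 from edgeR).

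The genes most alike to each Gadd45 gene in log2 CPM over the 8 libraries were *Chmp1b* (r = 0.987), *Golm1* (0.986) and *Pdcd6* (0.982) for *Gadd45a*, *Mtmr11* (0.993), *Krt14* (0.987) and *Spin1* (0.984) for *Gadd45b*, and *St6galnac4*, *Tmem127* and *Pfkfb4* (each 0.988) for *Gadd45g*. Such values were common, with 187, 326 and 248 genes above 0.9, respectively. Among them the keratin gene *Krt14* had log2 fold changes after TGF-β of 2.33 and 3.66, in control cells and cells labelled KO, and *Pfkfb4*, an enzyme that controls glycolytic flux, 0.86 and 1.60.

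A list of 34 other p53 targets, all of which were tested, held genes called in both directions after TGF-β. In control cells 9 were called, 2 higher and 7 lower (26.5% of the list against 9.16% of all genes), and the median log2 fold change was -0.28 against 0.02 over all genes. In cells labelled KO 11 were called, 2 higher and 9 lower (32.4% against 6.82%), with a median of -0.21 against 0. Fewer of the list were called in either kind of cell when an untreated library was left out, which leaves 1 in its group. Fewer of all genes were then called too, so these fits cannot tell a weaker change from a weaker test. In cells labelled KO the count was also lower without either treated replicate, as was that over all genes. With the replicate number as a block 6 were called in cells labelled KO, where 5.19% of all genes were.

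*Gdf15*, a stress-induced cytokine, was at 8.44 and 6.96 CPM in untreated and 0.937 and 1.38 CPM in treated control libraries, and at 13.9 and 18.2 CPM untreated and 1.55 and 0.874 CPM treated in libraries labelled KO. The groups were far apart, and the level fell 6.64-fold in control cells (log2 fold change -2.73, SE 0.40, edgeR adjusted p = 0.00466) and 13.2-fold in cells labelled KO (-3.72, SE 0.39, edgeR adjusted p = 0.00101). In the treated libraries 3 counts gave 0.238 to 0.318 CPM, so the sizes of these falls rest on few reads. *Sesn2*, the stress-induced paralog of *Sesn1*, fell by 1.75 and 0.91 on the log2 scale (edgeR adjusted p = 0.00175 and 0.0252), and *Pidd1*, which encodes a platform for caspase-2, by 1.30 and 1.17 (0.0167 and 0.0271). *Gtse1*, a gene of the G2 phase, fell by 1.11 and 0.89 (0.0156 and 0.0388), and *Btg2*, an antiproliferative gene, fell by 1.41 in cells labelled KO (0.0116), while its value in control cells was -0.89 (0.0553) and its interaction did not pass (adjusted p = 0.708). *Ddit4*, an inhibitor of mTORC1 that other stresses also induce, rose by 1.67 and 2.06 (0.025 and 0.0117), and the adenylate kinase gene *Ak1* by 0.93 and 1.04 (0.00375 and 0.00243). Depth and the epithelial marker sum moved with TGF-β here too, as given above.

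**Figure D4:**
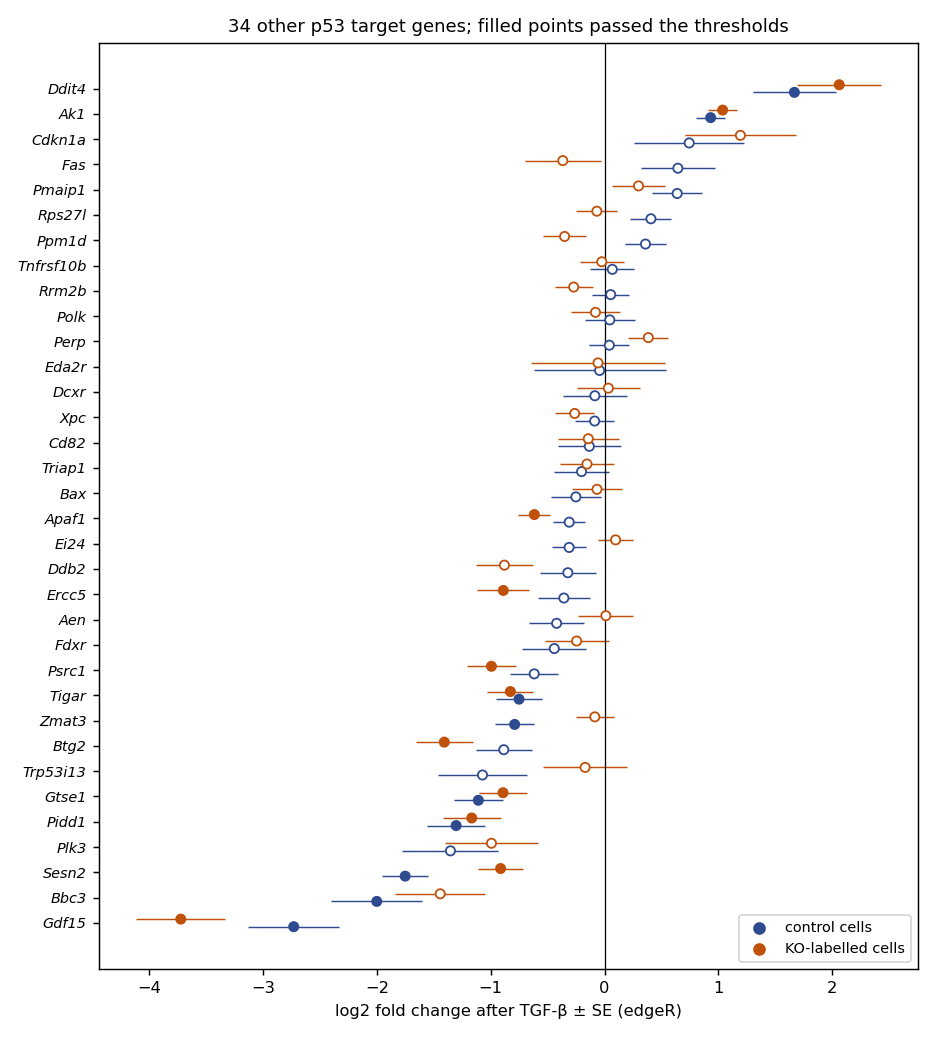
Log2 fold changes after TGF-β with standard errors from edgeR (x axis) for the 34 other p53 targets (y axis), in control cells (blue) and cells labelled KO (orange), with filled points for genes that passed both thresholds. *Ddit4* and *Ak1* have filled points to the right of 0 in both kinds of cells, and *Gdf15* lies farthest to the left, at -2.73 and -3.72.

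Between genotypes, 1 of the 34 targets was called in untreated cells (2.94% against 1.83% of all genes). This was *Ak1*, at 83.1 and 76.9 CPM in control and 142.9 and 143.4 CPM in libraries labelled KO (log2 fold change 0.84, SE 0.13, edgeR adjusted p = 0.0145). The call was lost when any of these 4 libraries was left out, where fewer of all genes were called too. In treated cells 6 were called (17.6% against 15.0%), of which 3 had the higher level in libraries labelled KO and 3 the lower. *Ak1* (0.94, edgeR adjusted p = 0.00291), *Sesn2* (1.16, 0.00776) and *Perp* (0.65, 0.0372), which encodes a protein of desmosomes, were higher. *Pmaip1*, a pro-apoptotic gene (-1.08, 0.0129), and *Ppm1d*, a phosphatase gene that shuts off damage signalling (-0.66, 0.04), were lower. This count was 1 in a fit of only the 4 treated libraries, where 3.21% of all genes were called. It was also lower without either treated replicate labelled KO, as was the count over all genes. By the interaction edgeR called 0 of the 34, of which 3 had an unadjusted p under 0.05, as did 1134 of all 13028 genes.

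*Trp53*, which encodes p53, was at 128 and 116 CPM in untreated control, 120 and 101 CPM in treated control, 100 and 111 CPM in untreated and 95.4 and 138 CPM in treated libraries labelled KO. Its libraries overlapped after TGF-β in both kinds of cells, and it passed in no comparison (log2 fold changes after TGF-β -0.14 and 0.15, adjusted p = 0.68 and 0.699 from edgeR). Of 24 genes for p53 and its regulators, 22 were tested. After TGF-β 1 was called in control cells (4.55% of those tested against 9.16% of all genes), the acetyltransferase gene *Kat5* (0.68, edgeR adjusted p = 0.0356). In cells labelled KO 2 were called (9.09% against 6.82%), *Trp53bp2*, whose product binds p53 (0.70, 0.0355), and the checkpoint kinase gene *Chek2* (-0.88, 0.0461). In the other kind of cell the values were 0.46 for *Kat5* (adjusted p = 0.141), 0.55 for *Trp53bp2* (0.0659) and -0.24 for *Chek2* (0.502), and edgeR called 0 of the 22 by the interaction, of which 1 had an unadjusted p under 0.05. Between treated genotypes 3 of 22 were called, where 15.0% of all genes were, with *Chek1* (-1.16, 0.00905) and *Chek2* (-0.80, 0.0365) lower and *Cdkn2a*, whose products include the Mdm2 inhibitor Arf (0.98, 0.0341), higher in the libraries labelled KO. These counts depended on the setting. In a fit of only the 4 libraries the list had 0 calls after TGF-β in control cells, where 3.74% of all genes were called. It then had 1 in cells labelled KO (7.47% of all genes) and 0 between treated genotypes (3.21%). Leaving out a library also lowered the counts in several fits. Fewer of all genes were then called too, except after TGF-β in control cells without treated replicate 1, where more were. Between untreated genotypes edgeR called 0 of 22, where 1.83% of all genes were called. In a fit of only the 4 untreated libraries it called 2, both lower, where 6.48% of all genes were called. With all 8 libraries 6 had an unadjusted p under 0.05, as did 1936 of all 13028 genes.

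Among 11 paralogs of the p53 targets, 10 were tested. *Ccng2*, the paralog of *Ccng1*, was at 38.8 and 47.1 CPM in untreated and 102 and 116 CPM in treated control libraries, and at 46.1 and 44.8 CPM untreated and 121 and 112 CPM treated in libraries labelled KO. It rose by 1.35 and 1.36 on the log2 scale (edgeR adjusted p = 0.00165 and 0.00168), while *Ccng1* did not pass. *Sesn2* was the other paralog called after TGF-β, which made 2 of 10 in either kind of cell, where 9.16% of all genes were called in control cells and 6.82% in cells labelled KO. Between treated genotypes 3 of 10 paralogs were called, where 15.0% of all genes were, with *Trp53inp2* (0.97, edgeR adjusted p = 0.0173) and *Sesn2* higher and *Plk4*, a kinase of centriole duplication (-1.16, 0.00658), lower in the libraries labelled KO. In cells labelled KO fewer paralogs were called after TGF-β without either untreated replicate or without treated replicate 2. Fewer of all genes were called in those fits too. Between treated genotypes 1 paralog was called in a fit of only the 4 treated libraries, where 3.21% of all genes were. Without treated replicate 2 labelled KO fewer paralogs and fewer of all genes were called between treated genotypes. Of 13 kinases and partners of Gadd45 proteins, all tested, edgeR called 0 after TGF-β in either kind of cell, with 2 in control cells and 7 in cells labelled KO at an unadjusted p under 0.05. Over all 13028 genes, 3491 and 2956 had such a p in these comparisons, and DESeq2 called 0 and 1 of the 13. In edgeR 1 was called in control cells without either treated replicate, and 1 in cells labelled KO without treated replicate 1. Between treated genotypes 4 of 13 were called (30.8% against 15.0% of all genes): *Mapk14*, which encodes p38α (0.68, edgeR adjusted p = 0.0178), and *Map2k7*, a kinase upstream of JNK (0.77, 0.0411), were higher, and *Map2k6*, a kinase upstream of p38 (-0.84, 0.0231), and *Cdk1* (-0.90, 0.0067) were lower in the libraries labelled KO. This count was 2 with thinned counts and 0 in a fit of only the 4 treated libraries, where 13.7% and 3.21% of all genes were called. It was also lower without treated replicate 2 labelled KO, as was the count over all genes.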

How the data were processed

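The table that the authors deposited holds raw counts, as whole numbers per gene and library, for 8 libraries. The submitters' processing notes name HISAT2, limma and mm10, whereas the paper's methods describe subjunc alignment, removal of duplicates and DESeq2; labels and paper also differ on library kit and sequencer. How reads were counted, and whether by strand, is not given in the sources used here. From these, TMM-scaled CPM were derived in edgeR 4.0.16 (R 4.3.3). The 13028 of 37310 genes left by filterByExpr were fitted with glmQLFit as 4 groups without a block and tested with glmQLFTest, with Benjamini-Hochberg adjustment. Calls needed an adjusted p under 0.05 and a log2 fold change over 0.5 in size, and interactions the adjusted p alone. The standard error is the log2 fold change divided by the square root of F. Replicate numbers come from the labels. With 2 pairs per comparison they were not taken to pair the libraries.

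The members and lists were chosen with earlier results of these data known. Named genes are the 9 members, the targeted gene, *Trp53*, up to 5 called genes per list and comparison by adjusted p, and the 3 genes most alike to each Gadd45 gene (log2 CPM, prior count 2). Outside this rule, *Cdkn1a*, *Fam111a*, *Dsg2* and *Mal2* and the markers of the cell type check were named, the first 4 after their values were seen. Alternatives were RLE factors, DESeq2 1.42.0, limma-voom (limma 3.58.1), no filter, a minimum mean of 10 counts, the replicate block, only the 4 libraries compared, thinned counts, no fold threshold, and each library left out. Near-identical copies were sought in the genome as stretches of at least 75 bases with 95% identity.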

Additional observations from a re-analysis of the deposited data

How the results depend on the processing

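Of 576 alternative values of the 9 members' log2 fold changes, 542 kept their direction and their side of the threshold, 6 passed it newly, 8 no longer passed and 20 changed sign, none of the last in a called change. Without a filter on low counts 1 member was called between untreated and 2 between treated genotypes, and the *Trp53inp1* interaction was 0.0028; a fit of only the 4 libraries called 1 member between untreated genotypes, and 2 and 1 of the p53 list between untreated and treated genotypes. With a library left out, 1 to 3 members were called after TGF-β in control cells, 1 to 3 in cells labelled KO and 0 to 2 between treated genotypes, and 2 to 9, 2 to 7 and 1 to 7 of the p53 list, with 0 between untreated genotypes. The lone library of a group was then assumed to vary like the others. Changes of sign on leaving out a library concerned uncalled log2 fold changes: *Mdm2* ranged from -0.17 to 0.11 between untreated genotypes, from -0.29 to 0.087 and from -0.32 to 0.41 after TGF-β in control cells and cells labelled KO, and from -0.27 to 0.45 between treated genotypes, and *Ccng1* from -0.056 to 0.26 after TGF-β in cells labelled KO. Interactions ranged from -0.23 to 0.50 (*Mdm2*), -0.86 to 0.22 (*Gadd45a*), -0.24 to 0.21 (*Trp53inp1*), -0.11 to 0.38 (*Sesn1*), -0.65 to 0.035 (*Plk2*) and -0.33 to 0.22 (*Phlda3*).

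Over all genes, 238 were called between untreated genotypes, but 408 by DESeq2, 137 by limma-voom, 756 without a filter, 150 with the replicate block and 804 from only their 4 libraries. TGF-β called 1194 genes in control cells (2021 without a filter, 470 from 4 libraries) and 889 in cells labelled KO (1832 without a filter), and treated genotypes differed in 1959 (410 from 4 libraries). For the interaction 0 became 31 with DESeq2 and 211 without a filter. With a library left out these counts were 42 to 53, 145 to 1484, 136 to 801, 477 to 2762 and 0 to 6. Same-numbered libraries correlated in their deviations at 0.097 (control and KO), 0.30 (control and treated control), -0.0088 (KO and treated KO) and -0.47 (treated control and treated KO). The alternatives for the lists of regulators, paralogs and partners were run after seeing the data. The replicate block left 6 of the p53 list called after TGF-β in cells labelled KO and changed no call of a member. An exchange of the numbers of the treated KO libraries, a choice made after seeing the data, gave 2809 calls between treated genotypes. With all libraries thinned to the smallest total, 186 genes and 0 members were called between untreated genotypes.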
